A study of Caenorhabditis elegans with 12 samples.

Results

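Transcript levels of pfd-6(gk493446); daf-2(e1370) double mutants were compared with those of the N2 wild type in 6 of the 12 libraries of the series, 3 per genotype. Each was a paired-end mRNA library from whole day 1 adult Caenorhabditis elegans. The other 6 libraries, 3 of daf-2(e1370) and 3 of pfd-6(gk493446) single mutants, entered only where stated. The double mutant, strain IJ485, carries a reduction-of-function allele of the insulin/IGF-1 receptor gene daf-2 and an allele of pfd-6, which encodes a prefoldin subunit; N2 carries neither. Genes entered the comparison with 10 or more counts in at least 3 of the 6 libraries. This left 14197 of 46904 listed genes, after 12 genes in 1 stretch of chromosome V with almost no N2 counts were set aside. All animals were grown on control RNA interference bacteria to the last larval stage and then moved to plates with FUdR, which blocks the production of progeny. The growth protocol names both control and pfd-6 RNA interference plates for the second step, and the labels do not say which was used for a given library.

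Prefoldin is a complex of several small subunits that binds newly made actin and tubulin chains and passes them to the cytosolic chaperonin TRiC/CCT for folding. Signalling from the DAF-2 receptor keeps the FOXO transcription factor DAF-16 out of the nucleus. Reduced signalling lets DAF-16 act, which lengthens life, raises stress-defence genes and lowers others, such as yolk protein genes. The heat shock factor HSF-1 also acts in this longevity pathway, and the title of the series places prefoldin 6 between HSF-1 and FOXO. The comparison described here sets animals that carry both mutant alleles against animals that carry neither.

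The double mutant libraries held 29232173, 32374704 and 22295483 expected counts, and the N2 libraries 41009125, 37571267 and 19394046. Levels are given below as CPM, counts scaled to library size and further scaled by TMM, in the order of replicates 1, 2 and 3. The replicate number was set as a block for this comparison, and libraries with the same number deviated together from their genotype means. On the first principal component, with 56.5% of the variance, the 3 double mutant libraries lay between 45.86 and 73.41 and the 3 N2 libraries between -66.35 and -37.63. On the second, with 30.9%, N2 replicate 3 lay at -86.68, apart from the other N2 libraries at 38.08 and 23.22. Replicate numbers are called biological repeats in the labels, and the last set was added later without saying which number that was. In whole animals, fewer cells of a type and less RNA per cell cannot be told apart.

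The mutated gene pfd-6 (WBGene00009004; chromosome I, 7282964 to 7283762) had 14.4, 13.2 and 15.3 CPM in the double mutant, against 129.8, 75.8 and 89.8 CPM in N2 (log2 fold change -2.75, SE 0.18, adjusted p = 0.00104). The groups did not overlap, and the transcript was low in every double mutant library. Transcripts of daf-2, the receptor gene, had 134, 128 and 199 CPM in the double mutant and 76, 91.1 and 175 CPM in N2, and overlapped between the groups (adjusted p = 0.0695). The groups also overlapped for the 2 transcription factor genes. Transcripts of daf-16 had 158, 161 and 159.8 CPM in the double mutant and 129.5, 186 and 139 CPM in N2 (adjusted p = 0.686), and those of hsf-1 had 85.8, 84.5 and 82.6 CPM in the double mutant and 62.1, 65.4 and 102 CPM in N2 (adjusted p = 0.498). The mitochondrial superoxide dismutase transcript sod-3, a standard readout of DAF-16 activity, rose to 18.8, 20.3 and 21.7 CPM in the double mutant, against 8.12, 6.66 and 5.4 CPM in N2 (log2 fold change 1.60, SE 0.21, adjusted p = 0.00443). The metallothionein transcript mtl-1 had 9.47, 12.2 and 30.7 CPM in the double mutant and 2.94, 1.8 and 1.21 CPM in N2 (log2 fold change 2.90, SE 0.52, adjusted p = 0.0122). No double mutant library fell within the N2 range for either gene, and double mutant replicate 3 was the highest for mtl-1.

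Of 14197 genes tested, 2916 passed the edgeR test at an adjusted p under 0.05, which is 20.5%. Of these, 1824 were higher in the double mutant (12.8% of genes tested) and 1092 were lower (7.69%). Rises were larger than falls: 1430 of the higher genes and 296 of the lower genes differed by at least 2-fold, and 383 and 44 by at least 8-fold. The median size of a called change was 1.86 on the log2 scale for higher genes and 0.70 for lower genes. The libraries of the 2 genotypes did not overlap for 5143 genes, 36.2% of those tested. Of the genes tested, 433 had fewer than 10 counts in every N2 library and 35 in every double mutant library, and such genes entered only through the group in which they were high. The counts depended on the replicates. Leaving out both libraries of replicate 3 gave 2963 higher and 3060 lower genes, a split of 49.2% higher, against 62.6% with all 6 libraries. Leaving out replicate 1 gave 678 higher and 133 lower genes, and leaving out replicate 2 gave 867 and 168. Without the block, 1048 genes were higher and 398 lower. Leave-out counts of gene lists below are to be read beside these counts over all genes tested. Of the 183 called genes named in the report or the closing section, 104 also passed without replicate 1, 112 without replicate 2, 183 without replicate 3 and 117 without the block. Among those given in the report with an adjusted p, cct-1, cct-4, cyp-35B1, dnj-19, glh-3, his-74, nduf-6, pas-3, pck-2, pfd-1 and pfd-5 passed neither without replicate 1 nor without replicate 2. Of the same genes, cyp-35A2 and myo-3 did not pass without replicate 1, and cpl-1, vit-3 and vit-4 did not pass without replicate 2. When 1 library at a time was left out without the block, the total ran from 91 (N2 replicate 2) to 3599 genes (N2 replicate 3). With all 6 libraries and no block it was 1446. With an offset for transcript length the calls were 1915 higher and 1481 lower, or 56.4% higher.

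**Figure D1:**
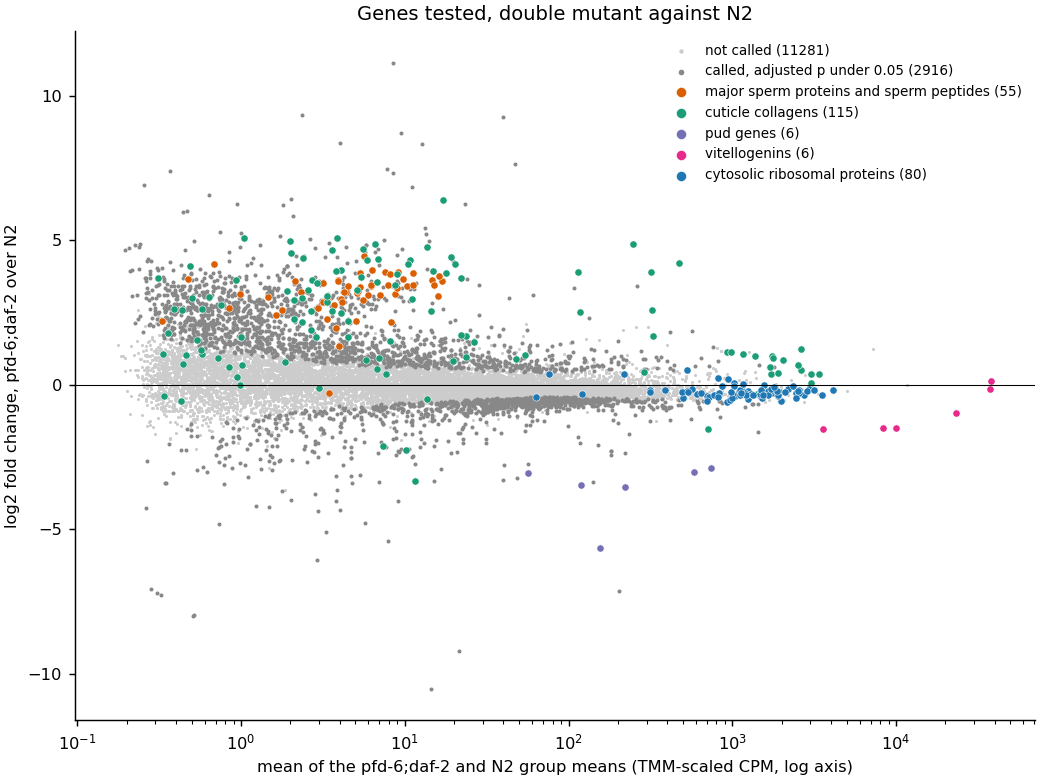
Log2 fold change (vertical axis, pfd-6;daf-2 over N2) of the 14197 genes tested against the mean of the 2 group means in CPM (horizontal log axis), with each point a gene. Sperm protein and collagen genes lie mostly above 0, the 6 pud genes lie below 0, and ribosomal protein genes lie close to 0 at high CPM.

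Steep rises were ranked among called genes whose libraries did not overlap and whose double mutant mean was 10 CPM or more. The 15 steepest fell into 2 patterns across double mutant libraries. In the first, all 3 double mutant libraries were well above N2. The isoprenylcysteine carboxyl methyltransferase gene icmt-1 (WBGene00017673; chromosome I, 4901918 to 4903264) had 18.5, 14.5 and 32.7 CPM in the double mutant and 0.213, 0.0857 and 0.242 CPM in N2 (log2 fold change 6.83, SE 0.28, adjusted p = 0.000556). The C-type lectin gene clec-15 (WBGene00010399; chromosome I, 12635172 to 12636542) had 96.5, 118 and 64.4 CPM in the double mutant and 0.852, 0.4001 and 0.0606 CPM in N2 (log2 fold change 7.64, SE 0.39, adjusted p = 0.000636). The groups were far apart for both genes, in every library. Y39G8B.7 (WBGene00012727; chromosome II, 13994410 to 13995034), for which the files give no name, had 33.6, 54.7 and 149.8 CPM in the double mutant and 0.071, 0.172 and 0 CPM in N2 (log2 fold change 9.26, SE 0.47, adjusted p = 0.000631). H39E23.3 had 13.3, 24.8 and 41 CPM in the double mutant and 0.686, 0.772 and 0.242 CPM in N2 (log2 fold change 5.21). F15B9.6 had 28.2, 36 and 17.1 CPM in the double mutant and 0.923, 1.66 and 0.121 CPM in N2 (log2 fold change 4.99). The double mutant libraries lay above N2 for these 3 genes as well, with replicate 3 highest for the first 2 and lowest for F15B9.6. The collagen gene col-117 (log2 fold change 6.41), col-175 (4.86), Y47D7A.15 (5.43) and ZK180.5 (5.002) were also in this group, and N2 replicate 3 was the highest N2 library for each.

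In the second pattern, double mutant replicate 3 was more than 10-fold above the other 2 double mutant libraries. The C-type lectin gene clec-18 had 2.69, 2.21 and 51.9 CPM in the double mutant and 0.0237, 0 and 0.0606 CPM in N2, where 2 counts were seen in all (ratio of scaled counts 693, 95% counting interval 192 to 5730). The gene scl-19, of a family of secreted cysteine-rich proteins, had 1.55, 1.87 and 72.6 CPM in the double mutant and 0.0237, 0.0572 and 0 CPM in N2 (ratio 607, counting interval 208 to 2950). The aspartyl protease gene asp-18 had 3.03, 3.2 and 133 CPM in the double mutant and 0.355, 0.0572 and 0 CPM in N2 (log2 fold change 6.27, SE 1.21, adjusted p = 0.0158). Replicates 1 and 2 of the double mutant were above N2 for each of these, but by far less than replicate 3. The saposin-like gene spp-9 (2.94, 2.83 and 41.1 CPM in the double mutant, 0.071, 0.0286 and 0 CPM in N2) and F35E8.6 (1.33, 1.61 and 47.9 CPM in the double mutant, 0.0237, 0.0857 and 0 CPM in N2) showed the same shape. F35E8.7, which lies beside F35E8.6 on chromosome V, had 0.835, 1.3 and 49 CPM in the double mutant and no count in N2, at least 532-fold higher against a floor of 3 counts over the N2 group.

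Steep falls were found by the same ranking among genes with an N2 mean of 10 CPM or more. The invertebrate-type lysozyme gene ilys-5 (WBGene00017691; chromosome X, 6533490 to 6536840) had 2.88, 2.6 and 2.39 CPM in the double mutant, against 326, 268 and 611 CPM in N2 (log2 fold change -7.14, SE 0.33, adjusted p = 0.000607). The gene gba-4 (WBGene00021160; chromosome IV, 5344592 to 5350897), a homologue of the human lysosomal enzyme glucocerebrosidase, had 7.76, 5.58 and 8.69 CPM in the double mutant and 75, 58.4 and 81.8 CPM in N2 (log2 fold change -3.30, SE 0.14, adjusted p = 0.000556). Both were low in every double mutant library. The thaumatin family gene thn-2 had 2.32, 4.22 and 1.73 CPM in the double mutant and 21.9, 26.5 and 33.4 CPM in N2 (log2 fold change -3.33). The C-type lectin gene clec-190 had 1.33, 1.13 and 0.665 CPM in the double mutant and 18.7, 13.3 and 19.5 CPM in N2 (-4.01), and clec-10 had 1.3, 1.9 and 0.62 CPM in the double mutant and 11.6, 13.7 and 12.8 CPM in N2 (-3.36). These 3 genes showed no overlap, and N2 libraries differed by less than 2-fold for each. The aspartyl protease gene asp-17 had 0.278, 0.538 and 0.177 CPM in the double mutant and 14.3, 31.2 and 1.09 CPM in N2 (-5.38). The collagen gene col-43 had 1.7, 1.93 and 2.3 CPM in the double mutant and 19.7, 32 and 11.6 CPM in N2 (-3.34), a fall in a family whose called members mostly rose. The largest fitted falls belonged to 2 non-coding RNAs at the right end of chromosome I. F31C3.13 (0, 0 and 0.0443 CPM in the double mutant, 1.04, 2.86 and 83.1 CPM in N2) and F31C3.16 (0, 0.0566 and 0.0886 CPM in the double mutant, 1.11, 3.46 and 124 CPM in N2) were high in N2 replicate 3 alone. F31C3.13 lies inside a ribosomal RNA gene, rrn-1.1, on the opposite strand, and F31C3.16 overlaps a pseudogene beside it. No source used here says that counting used strand, so reads of these overlapping genes cannot be told apart.

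**Figure D2:**
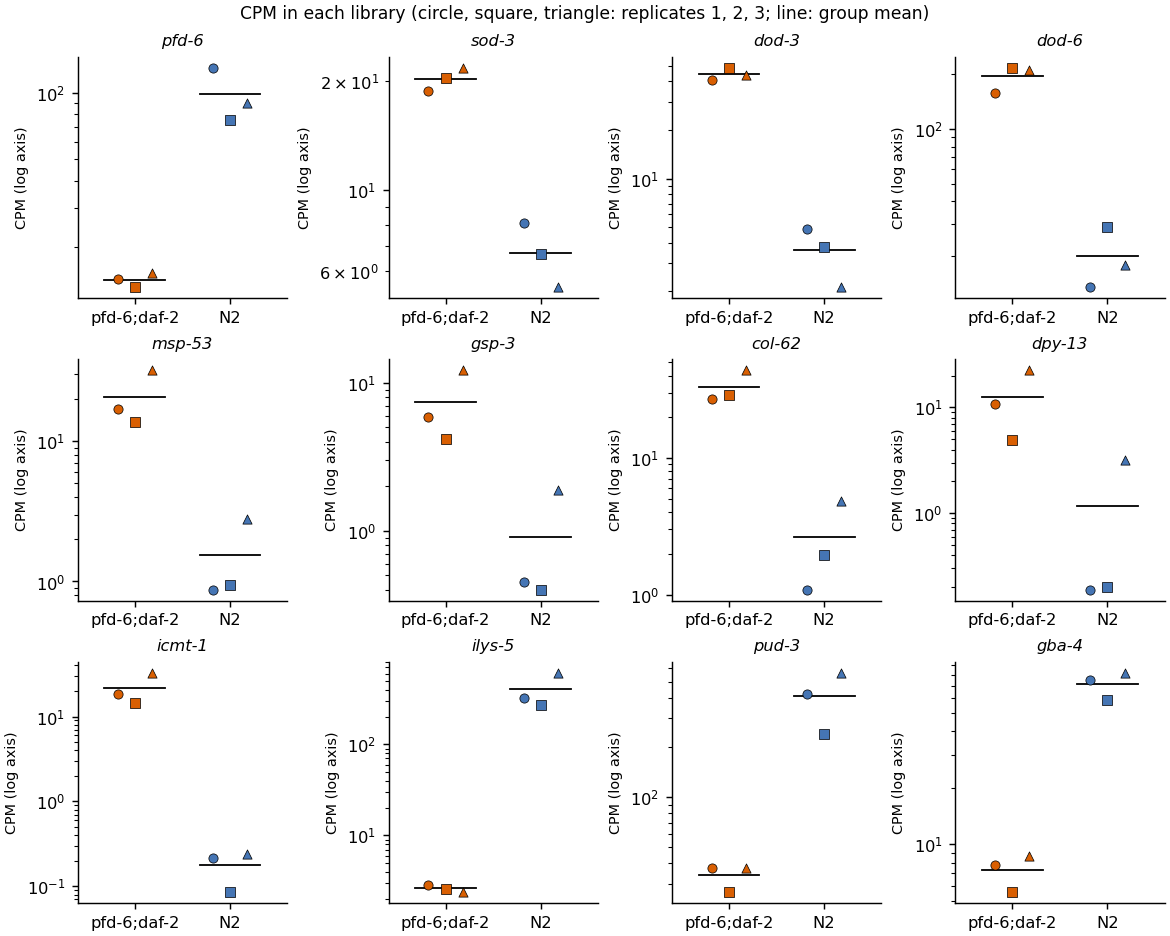
CPM (log axis) of 12 named genes in each pfd-6;daf-2 and N2 library, with symbols for replicates 1 to 3 and a line for the group mean. The groups do not overlap in any panel; pfd-6, ilys-5, pud-3 and gba-4 are lower in the double mutant and the other 8 genes are higher.

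The steep changes were set beside the single mutants on one scale over all 12 libraries. The double mutant libraries are shared by these contrasts and the one with N2, so they are not independent of it. Across all genes, 5.68% passed against daf-2 and 10.3% against pfd-6. Of the 15 steepest rises, 4 were higher in the double mutant than in daf-2, 1 was lower and the others did not pass, while 14 were higher than in pfd-6. Of the 15 steepest falls, 1 was higher in the double mutant than in daf-2, 3 were lower and the others did not pass, while 11 were lower than in pfd-6. A difference that did not pass does not show equal levels. The genes described next were picked after their values were seen. H39E23.3 averaged 29.2 ± 15.3 CPM in the double mutant, 275 ± 69.3 CPM in daf-2, 0.536 ± 0.53 CPM in pfd-6 and 0.634 ± 0.318 CPM in N2 (SD, n = 3 each). It was lower in the double mutant than in daf-2 (difference of -3.27 on the log2 scale, adjusted p = 0.0144) and higher than in pfd-6 (difference of 5.86 on the log2 scale, adjusted p = 0.00356). Its rise over N2 was thus smaller in the double mutant than in the daf-2 single mutant by this test. The pud-3 gene averaged 37.6 ± 7.26 CPM in the double mutant, 152 ± 58.8 CPM in daf-2, 504 ± 213 CPM in pfd-6 and 458 ± 181 CPM in N2, and was lower in the double mutant than in daf-2 (difference of -1.99 on the log2 scale, adjusted p = 0.0315). For clec-10 the averages were 1.41 ± 0.697 CPM in the double mutant, 0.0541 ± 0.0175 CPM in daf-2, 20.1 ± 2.58 CPM in pfd-6 and 14.2 ± 1.41 CPM in N2, and the double mutant was higher than daf-2 (difference of 4.58 on the log2 scale, adjusted p = 0.00716). Y47D7A.15 averaged 28.4 ± 23.3 CPM in the double mutant, 0.264 ± 0.124 CPM in daf-2, 0.0657 ± 0.0615 CPM in pfd-6 and 1.23 ± 1.96 CPM in N2. It was higher in the double mutant than in daf-2 (difference of 6.35 on the log2 scale, adjusted p = 0.0144) and than in pfd-6 (difference of 8.47 on the log2 scale, adjusted p = 0.00949). For sod-3 the averages were 22.6 ± 1.38 CPM in the double mutant, 39.3 ± 14.6 CPM in daf-2, 4.41 ± 0.99 CPM in pfd-6 and 7.51 ± 1.4 CPM in N2. The difference between the double mutant and daf-2 did not pass the test for sod-3 (difference of -0.73 on the log2 scale, adjusted p = 0.118), while the double mutant was higher than pfd-6 (difference of 2.40 on the log2 scale, adjusted p = 0.00323). Levels of ilys-5 averaged 2.92 ± 0.313 CPM in the double mutant, 0.651 ± 0.183 CPM in daf-2 and 344 ± 265 CPM in pfd-6. Replicate 3 of daf-2 and of pfd-6 were low in ribosomal protein transcripts. Without those 2 libraries, the log2 fold change over daf-2 was -3.32 (adjusted p = 0.00645) for H39E23.3. It was -1.81 (adjusted p = 0.00645) for pud-3 and 4.88 (adjusted p = 0.00675) for clec-10. For Y47D7A.15 it was 5.40 (adjusted p = 0.00645), and for sod-3 -0.86 (adjusted p = 0.0907). The ilys-5 contrast with daf-2 had a difference of 2.15 on the log2 scale, adjusted p = 0.155, with all libraries and a log2 fold change of 2.02 (adjusted p = 0.0202) without those 2.

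**Figure D3:**
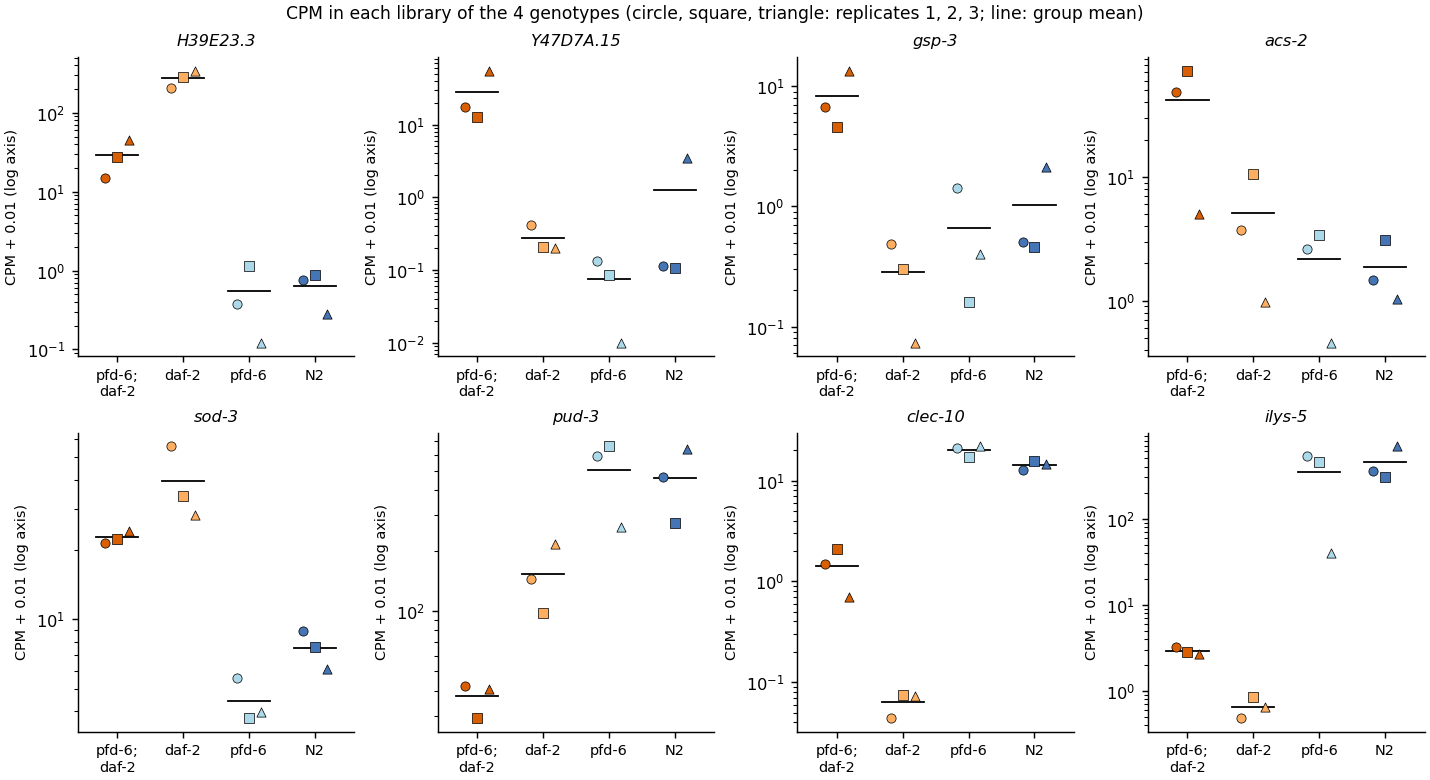
CPM + 0.01 (log axis) of 8 genes in each library of pfd-6;daf-2, daf-2, pfd-6 and N2, with symbols for replicates 1 to 3 and a line for the group mean. H39E23.3 is highest in daf-2, and Y47D7A.15, gsp-3 and acs-2 have their highest group mean in the double mutant, while clec-10 is lowest in daf-2.

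Among DAF-16 targets, called genes of the raised class were mostly higher in the double mutant and those of the lowered class were all lower. Of 26 tested genes that DAF-16 is known to raise, 11 were higher in the double mutant, 1 was lower and the median log2 fold change was 0.48, beside -0.03 over all genes tested. The dod-6 gene, found downstream of DAF-16, had 158, 216 and 211 CPM in the double mutant and 13.4, 28.7 and 17.9 CPM in N2 (log2 fold change 3.34, SE 0.18, adjusted p = 0.000636). In the same class, dod-3 had 40.6, 48.5 and 44.1 CPM in the double mutant and 4.9, 3.77 and 2.12 CPM in N2 (log2 fold change 3.65, SE 0.27, adjusted p = 0.0014). Both were high in all 3 double mutant libraries and did not overlap with N2. The linker histone-like gene hil-1 had 16.2, 18.9 and 17 CPM in the double mutant and 5.51, 4.17 and 3.27 CPM in N2 (log2 fold change 2.02). The gene lea-1, whose product resembles plant proteins that protect against drying, had 772, 733 and 1116 CPM in the double mutant and 148, 215 and 409.6 CPM in N2 (1.86). The antimicrobial saposin-like gene spp-1 fell (log2 fold change -0.60). The catalase genes ctl-1 and ctl-2 were among the 14 members that did not pass. Of 12 tested genes of the lowered class, 0 were higher and 5 lower (median -0.62). The share higher was 42.3% in the raised class and the share lower 41.7% in the lowered class. Over all genes tested these shares were 12.8% and 7.69%. The CUB-like gene dod-22 had 0.712, 0.934 and 0.798 CPM in the double mutant and 10.3, 9.46 and 6.24 CPM in N2 (-3.40), and dod-24 had 8.6, 8.95 and 6.2 CPM in the double mutant and 120.5, 126 and 22.4 CPM in N2 (-3.22). The dod-23 transcript had 27.4, 27.9 and 13.6 CPM in the double mutant and 371, 316 and 96.2 CPM in N2 (-3.37). N2 replicate 3 was the lowest N2 library for these 3, and still above every double mutant library. For dod-21 the groups overlapped at N2 replicate 3 (-2.92). With replicates 1, 2 and 3 left out in turn, 7, 7 and 13 raised-class genes were higher, 0, 0 and 6 raised-class genes were lower and 3, 4 and 7 lowered-class genes were lower. Without the block, 7 of the raised class were higher and 4 of the lowered class were lower.

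The pud genes, named for proteins found raised in daf-2 mutants, fell together: all 6 tested entries were lower, with a median of -3.25. Their summed level was 362, 284 and 569 CPM in the double mutant and 3222, 1994 and 4857 CPM in N2. The neighbours pud-3 (chromosome V, 2324634 to 2325152) and pud-4 (chromosome V, 2326678 to 2327282) had 37.4, 26.7 and 37.1 CPM and 20.3, 17.6 and 20.1 CPM in the double mutant, against 423, 242 and 564 CPM and 285, 159 and 216 CPM in N2. Their log2 fold changes were -3.53 (SE 0.20) and -3.47 (SE 0.17). The pud-1.1 and pud-1.2 genes, near-identical copies of each other, fell by 3.03 and 2.89 on the log2 scale. The 2 entries named pud-2.2 are near-identical copies among which reads may have been split. One of them (WBGene00017500) fell by 2.998 without overlap, while the other (WBGene00017490) had 0, 1.19 and 122 CPM in the double mutant and overlapped with N2.

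Few genes of the insulin pathway itself passed the test. Of 26 pathway genes, 2 were higher and 1 lower, or 7.69% and 3.85%, beside 12.8% and 7.69% of all genes tested. The called genes were ist-1 (log2 fold change 0.91), a homologue of insulin receptor substrate, hlh-30 (0.54), a regulator of autophagy genes, and aap-1 (-0.46), the adaptor subunit of the PI3 kinase. Higher pathway genes numbered 0, 0 and 6 and lower ones 0, 0 and 3 without replicates 1, 2 and 3 in turn. Without the block, 1 pathway gene was higher and 0 lower. Of 39 insulin-like peptide genes, 21 were tested, 11 were higher (52.4%, beside 12.8% of all genes tested), 0 were lower and the median was 1.04. The ins-10 transcript had 0.99, 1.44 and 0.886 CPM in the double mutant and 0.0947, 0.0857 and 0.0606 CPM in N2 (log2 fold change 3.68, SE 0.43, adjusted p = 0.00306). The ins-6 transcript, which encodes an agonist of the receptor, had 1.15, 2.35 and 3.59 CPM in the double mutant and 0.237, 0.886 and 1.09 CPM in N2 (1.74). Both were low in N2, and 3 of the 21 tested peptide genes had under 10 counts in every N2 library. The counts of higher peptide genes were 2, 3 and 12 without replicates 1, 2 and 3 in turn, and 4 without the block. Lower peptide genes numbered 0, 0 and 2 without those replicates.

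Sperm transcripts rose almost without exception. Of 62 genes for major sperm proteins and small sperm peptides, 55 were tested, 53 were higher, 0 were lower and the median log2 fold change was 3.24. Major sperm proteins form the filaments that let nematode sperm crawl, and hermaphrodites make sperm only in late larval life before the germ line switches to oocytes. Their summed level was 432, 357 and 944 CPM in the double mutant and 37.8, 30.6 and 167 CPM in N2. The 2 ranges did not overlap, and replicate 3 was the highest library of each genotype. The msp-53 gene (WBGene00003446; chromosome IV, 5064678 to 5065061) had 16.8, 13.6 and 31.9 CPM in the double mutant and 0.876, 0.943 and 2.79 CPM in N2 (log2 fold change 3.87, SE 0.23, adjusted p = 0.000833). The msp-59 gene had 21.1, 18.7 and 44.9 CPM in the double mutant and 2.25, 1.89 and 6.79 CPM in N2 (3.08), and msp-78 had 10.6, 9.91 and 24.1 CPM in the double mutant and 0.686, 0.429 and 2.67 CPM in N2 (3.82). Each was higher in every double mutant library than in the highest N2 library. Of the tested members, 6 had fewer than 10 counts in every N2 library and entered through the double mutant. The genes of this family are near-identical, so their reads may have been shared among copies. Only ssp-37 and ssp-19 did not pass. The median ratio within replicate pairs was 2.86, 2.71 and 2.17 on the log2 scale (each CPM plus 0.5), and 48, 52 and 54 members were higher without replicates 1, 2 and 3 in turn. Without the block, 28 members were higher.

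Other genes of sperm formation moved less uniformly. Of 41 genes for spermatogenesis and sperm activation, 29 were tested, 13 were higher (44.8%) and 1 lower (3.45%), with a median of 1.03. Of the tested ones, 5 had fewer than 10 counts in every N2 library and entered only through the double mutant. Their summed level was 569.9, 540.4 and 589 CPM in the double mutant and 671, 611 and 585 CPM in N2, ranges that overlap. The sperm-specific phosphatase genes gsp-3 and gsp-4 had 5.91, 4.19 and 12.1 CPM and 6.31, 4.73 and 11.6 CPM in the double mutant, against 0.45, 0.4001 and 1.88 CPM and 0.521, 0.457 and 2.36 CPM in N2. Their log2 fold changes were 3.23 and 3.04, and the groups did not overlap. The sperm-supplied embryonic factor spe-11 had 3.19, 2.44 and 4.7 CPM in the double mutant and 0.568, 0.429 and 0.606 CPM in N2 (2.62), the myosin VI gene spe-15 rose by 1.65, and spe-48 fell by 0.56 on the log2 scale. Of 25 germline sex determination genes 1 was higher (4%, beside 12.8% of all genes tested). This was fog-3, needed for germ cells to become sperm, at 10.1, 10.5 and 10.2 CPM in the double mutant and 1.37, 1.03 and 2.06 CPM in N2 (log2 fold change 2.85, SE 0.27, adjusted p = 0.00188). It was about equal in the 3 double mutant libraries. The 3 lower ones (12%, beside 7.69% of all genes tested) were daz-1 (-0.71), gld-3 (-0.58) and fem-2 (-0.48). Higher sex determination genes numbered 1, 1 and 5 and lower ones 0, 0 and 5 without replicates 1, 2 and 3 in turn. Without the block, 1 was higher and 1 lower. Of 24 small RNA pathway genes, 2 were higher (8.33%, beside 12.8% of all genes tested) and 0 lower. The higher ones were the Argonaute genes alg-3 and alg-4, which act in male germ cells. They had 4.3, 3.62 and 6.47 CPM and 3.53, 3.14 and 7.8 CPM in the double mutant, against 0.592, 0.686 and 1.52 CPM and 0.45, 0.429 and 1.64 CPM in N2. With replicates 1, 2 and 3 left out in turn, 8, 11 and 14 spermatogenesis genes were higher and 0, 0 and 6 were lower.

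**Figure D4:**
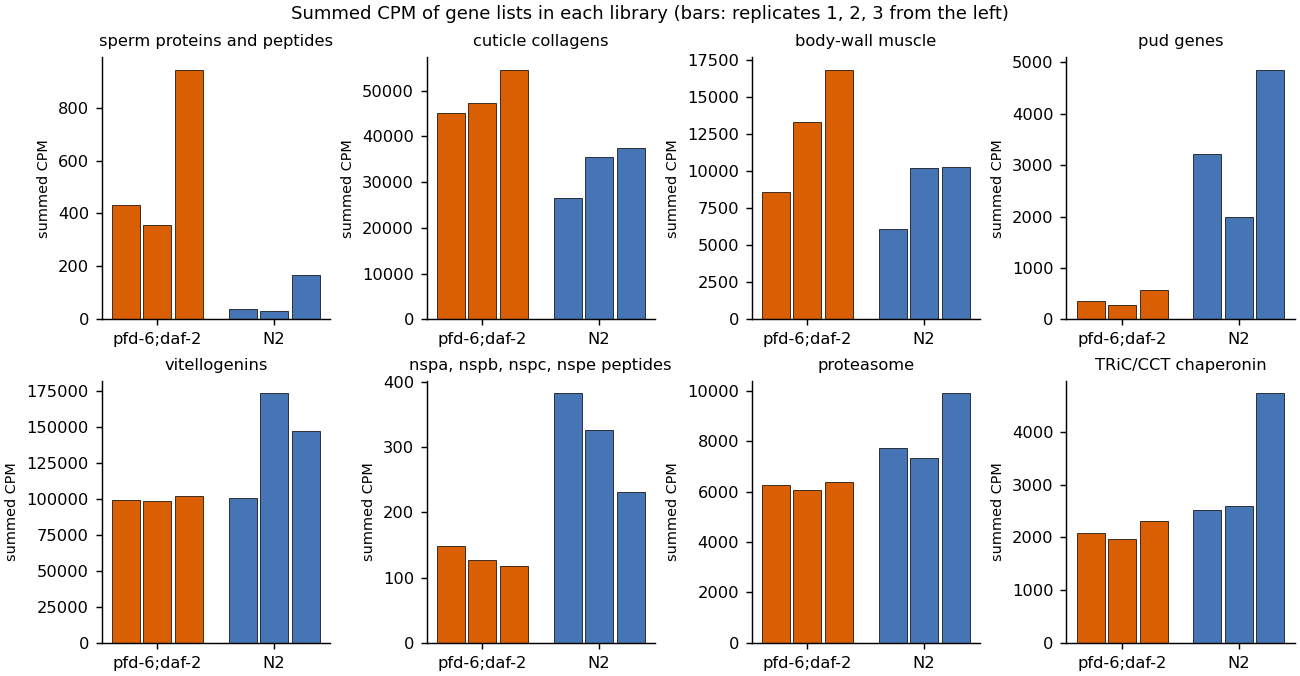
Summed CPM (bars starting at 0) of 8 gene lists in each library, replicates 1 to 3 from the left, with pfd-6;daf-2 left of N2 in each panel. Sperm protein and collagen sums are higher in every double mutant library than in every N2 library, pud and nematode-specific peptide sums are lower, and N2 replicate 3 stands high for the chaperonin.

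The oocyte genes that passed with all 6 libraries and the block were all lower in the double mutant. Of 42 oocyte, eggshell and P granule genes 0 were higher and 9 were lower (21.4%, beside 7.69% of all genes tested). Of the 42, 38 were below 0, and the median was -0.33. Without replicate 3, 12 of the 42 were above 0, and without N2 replicate 3 alone 16 were. The germline helicase gene glh-3 had 52.1, 51.1 and 54.3 CPM in the double mutant and 83.2, 81.2 and 76 CPM in N2 (log2 fold change -0.61, SE 0.12, adjusted p = 0.0169). The permeability barrier gene perm-2, needed for the eggshell, had 792, 946 and 881 CPM in the double mutant and 1490, 1936 and 1142 CPM in N2 (-0.77). The maternal factors pie-1 (-0.57) and pos-1 (-0.56) also fell without overlap. The lower oocyte genes numbered 0, 0 and 13 without replicates 1, 2 and 3 in turn, and the higher ones 0, 0 and 1. Without the block, 1 was lower and 0 higher. The vitellogenins, yolk proteins made in the intestine and taken up by oocytes, did not move alike. The genes vit-3 and vit-4 had 5312, 4436 and 5531 CPM and 4394, 3761 and 4377 CPM in the double mutant, against 9258, 15300 and 20030 CPM and 7500, 13210 and 16650 CPM in N2. Their log2 fold changes were -1.49 (adjusted p = 0.0097) and -1.51 (adjusted p = 0.0108). The vit-5 transcript had 15510, 14300 and 16520 CPM in the double mutant and 25520, 40920 and 27080 CPM in N2 (-0.98), and vit-1 had 1410, 1033 and 2169 CPM in the double mutant and 2081, 3130 and 11670 CPM in N2 (-1.53). The groups overlapped for vit-1 alone of these 4. The remaining 2 did not pass: vit-2 had 34420, 34940 and 35190 CPM in the double mutant and 29660, 52200 and 36900 CPM in N2, and vit-6 had 38240, 40480 and 38550 CPM and 26620, 48860 and 35150 CPM. With replicates 1, 2 and 3 left out in turn, 3, 0 and 4 of the 6 vitellogenin genes were lower. Of 28 tested early embryo genes 3 were higher (10.7%) and 1 was lower (3.57%), beside 12.8% and 7.69% of all genes tested. The lower one, sdz-6, a target of SKN-1, which specifies the early endoderm, had 0.0619, 0.0566 and 0.133 CPM in the double mutant and 10.6, 5.86 and 0.728 CPM in N2 (-6.05). Its relative in the same class, sdz-24, had 43.1, 50.4 and 49.4 CPM in the double mutant and 10.7, 11.6 and 5.09 CPM in N2 (2.43). Early embryo genes called higher numbered 1, 1 and 4 without replicates 1, 2 and 3 in turn, as did those called lower.

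The share of called genes differed between chromosomes, which was not tested. The share of higher genes was 16.5% on chromosome IV, 12.5% on I, 12.1% on II, 11.3% on X and 8.95% on III, and 407 of 2714 genes on V were higher. The share of lower genes was 9.66% on III, 8.75% on I, 8.06% on IV, 7.85% on V, 6.72% on II and 4.91% on X. Of the tested sperm genes in both lists, 38 lie on chromosome IV and 0 on X.

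Cuticle collagens held more called rises than any other list. Of 156 cuticle collagen genes 115 were tested, and 82 of these were higher (71.3%, beside 12.8% of all genes tested). Another 4 were lower, and the median of all tested members was 1.89. Collagens are secreted by the hypodermis and built into the cuticle, most of them in bursts before each larval moult. Summed over the list, they took 45120, 47300 and 54610 CPM in the double mutant and 26600, 35440 and 37470 CPM in N2, without overlap. Of the tested members, 12 had fewer than 10 counts in every N2 library. The col-62 gene (WBGene00000638; chromosome I, 7403291 to 7404374) had 26.8, 29 and 43.7 CPM in the double mutant and 1.09, 1.94 and 4.85 CPM in N2 (log2 fold change 3.88, SE 0.30, adjusted p = 0.00141). The col-39 gene had 36.7, 33.6 and 52.1 CPM in the double mutant and 1.66, 2.83 and 6.24 CPM in N2 (3.69), and col-7 had 11.2, 8.97 and 17.2 CPM in the double mutant and 0.639, 0.857 and 1.88 CPM in N2 (3.56). For all 3, the lowest double mutant library was above the highest N2 library. The 4 that fell were col-43, described above, col-158 (-2.24), col-95 (-1.53) and col-135 (-2.11). Body-shape collagens, whose mutants are dumpy, squat or roller, gave 11 higher (55%) and 0 lower of 20 tested (median 1.90). The dpy-13 gene had 10.7, 4.93 and 22.4 CPM in the double mutant and 0.189, 0.2001 and 3.15 CPM in N2 (log2 fold change 4.13, SE 0.54, adjusted p = 0.0046). The genes dpy-4 (3.40), dpy-5 (3.80) and sqt-2 (2.99) had the same shape over the libraries, with replicate 3 highest in both genotypes. Leaving out replicates 1, 2 and 3 in turn left 54, 68 and 88 collagens and 5, 8 and 17 body-shape collagens higher. Without the block, 44 collagens and 1 body-shape collagen were higher.

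Other secreted cuticle and moulting genes followed in part. Shares higher were 28.6% of hedgehog- and patched-related, 25% of cuticlin and moulting and 20.4% of abu and pqn genes. Over all genes tested the share higher was 12.8%. Of 56 tested hedgehog-related and patched-related genes, a group of secreted and membrane proteins of the skin, 16 were higher and 2 lower (median 0.46). Of the 56, 4 had fewer than 10 counts in every N2 library and entered only through the double mutant. The grd-10 gene had 24.5, 24.1 and 28.3 CPM in the double mutant and 3.62, 3.26 and 3.88 CPM in N2 (log2 fold change 2.84, SE 0.17, adjusted p = 0.000856). The grl-16 gene had 8.91, 4.33 and 26.1 CPM in the double mutant and 0.189, 0.143 and 1.58 CPM in N2 (4.70). Libraries of each genotype were close together for grd-10 and spread for grl-16, without overlap in either. The genes wrt-5 (-0.80) and ptr-21 (-0.52) fell. Of 60 cuticlin, moulting and astacin protease genes 15 were higher and 4 lower (median 0.40). The astacin metalloprotease genes went both ways. The nas-9 gene had 20.3, 28.7 and 28.5 CPM in the double mutant and 8.83, 13.2 and 6.002 CPM in N2 (1.498), whereas nas-3 had 0.588, 0.283 and 0.487 CPM in the double mutant and 8.19, 6.72 and 6.49 CPM in N2 (-4.01). The moulting protease gene nas-37 rose by 0.98 on the log2 scale. Of 49 abu and pqn genes, which encode glutamine-rich repeat proteins, 10 were higher and 4 lower. Of the 49, 3 had fewer than 10 counts in every N2 library and entered only through the double mutant. The pqn-72 gene rose (1.90) and pqn-21 fell (-0.62). Leaving out replicates 1, 2 and 3 in turn left 6, 10 and 21 hedgehog-related, 2, 5 and 22 cuticlin and moulting and 3, 4 and 11 abu and pqn genes higher, and 0, 0 and 5, 2, 2 and 8 and 0, 0 and 10 of these 3 lists lower. Without the block, 11, 7 and 3 were higher.

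**Figure D5:**
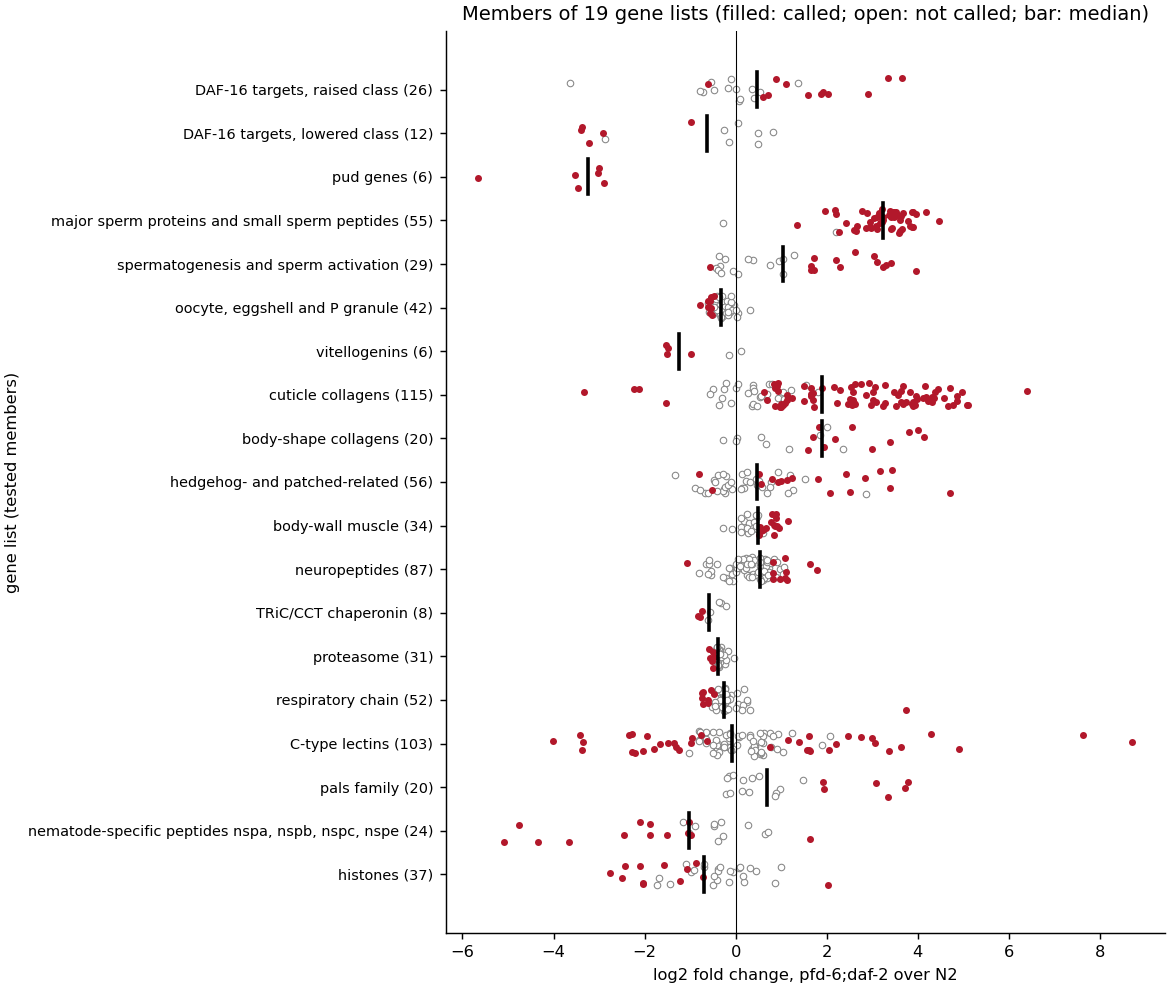
Log2 fold changes (horizontal axis, pfd-6;daf-2 over N2) of the tested members of 19 gene lists, with filled points for called genes, open points for genes not called and a bar at the list median. Sperm protein and collagen members lie mostly to the right of 0, pud genes all lie to the left, and lectins spread to both sides.

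The muscle genes that passed were all higher in the double mutant. Of 34 body-wall muscle genes 15 were higher (44.1%, beside 12.8% of all genes tested) and 0 were lower. The median was 0.49, with 32 genes above 0. Their summed level was 8609, 13280 and 16830 CPM in the double mutant and 6057, 10220 and 10240 CPM in N2, ranges that overlap, while each double mutant library was above the N2 library of the same number. The myosin heavy chain gene myo-3 had 75.5, 149.7 and 216 CPM in the double mutant and 32.5, 90.05 and 77 CPM in N2 (log2 fold change 1.15, SE 0.17, adjusted p = 0.00723). The myosin light chain gene mlc-1 had 454, 571 and 515 CPM in the double mutant and 246, 316 and 305 CPM in N2 (0.83), and the troponin T gene mup-2 rose by 0.79. The twitchin gene unc-22 had 102, 230.2 and 497 CPM in the double mutant and 41.9, 159.7 and 262 CPM in N2 (0.91), with values that differed several-fold within each genotype. Of 21 pharynx genes 6 were higher (28.6%) and 1 was lower (4.76%), beside 12.8% and 7.69% of all genes tested. The lower one was phat-6 (-1.19). Without replicates 1, 2 and 3 in turn, 0, 4 and 20 muscle genes and 0, 1 and 7 pharynx genes were higher. Lower pharynx genes numbered 0, 0 and 5. Without the block, 2 muscle genes and 2 pharynx genes were higher.

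The neuron genes that passed with all 6 libraries and the block were higher. Of 31 neuron genes 7 were higher (22.6%, beside 12.8% of all genes tested) and 0 lower (median 0.70). The higher ones numbered 1, 2 and 14 without replicates 1, 2 and 3 in turn and 3 without the block, and 1 gene was lower without replicate 3. The nicotinic acetylcholine receptor subunit gene unc-38, which lies beside icmt-1 on chromosome I, had 16, 15.4 and 22.9 CPM in the double mutant and 1.23, 1.97 and 1.03 CPM in N2 (log2 fold change 3.64, SE 0.31, adjusted p = 0.00167). The serotonin synthesis gene tph-1 had 0.835, 1.1 and 0.931 CPM in the double mutant and 0.284, 0.172 and 0.242 CPM in N2 (2.02). Both were higher in every double mutant library. The proprotein convertase gene egl-3 (0.80) and the dense-core vesicle gene ida-1 (0.90), both used to make neuropeptides, rose with overlap between groups. Of 87 neuropeptide genes 10 were higher and 1 lower, with 71 above 0 and a median of 0.53. The share higher was 11.5%, near the 12.8% of all genes tested. The flp-1 gene had 8.91, 15.2 and 20.8 CPM in the double mutant and 4.45, 8.29 and 8.06 CPM in N2 (1.08), flp-34 rose by 1.79, and nlp-56 fell by 1.08 on the log2 scale. Higher neuropeptide genes numbered 0, 0 and 24 and lower ones 0, 0 and 10 without replicates 1, 2 and 3 in turn, and 2 and 1 without the block. Of 23 intestine genes 4 were higher and 3 lower, or 17.4% and 13%, beside 12.8% and 7.69% of all genes tested. Higher intestine genes numbered 0, 1 and 6 and lower ones 2, 2 and 4 without replicates 1, 2 and 3 in turn. Without the block, 0 were higher and 1 lower. The intermediate filament genes ifb-2 (0.61) and ifp-1 (1.59) and the transporter genes pgp-1 (1.10) and pgp-3 (0.86) rose. The sodium-proton exchanger gene nhx-2 (-0.99), the protease gene cpr-1 (-1.38) and the desaturase gene fat-7 (-2.001) fell.

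Of the 7 prefoldin genes, all 7 had a negative log2 fold change and 3 were lower by the test, though uri-1 turned positive without replicate 3. Beside pfd-6 itself, pfd-5 had 70.3, 68.2 and 54.3 CPM in the double mutant and 155, 103 and 82.6 CPM in N2 (log2 fold change -0.78, SE 0.15, adjusted p = 0.0172). The pfd-1 gene had 64.3, 55.3 and 49.7 CPM in the double mutant and 142, 87.8 and 69.1 CPM in N2 (log2 fold change -0.76, SE 0.16, adjusted p = 0.0209). N2 replicate 1 was the highest library for both, and the groups did not overlap. The subunit genes pfd-2 (-0.38), pfd-3 (-0.41) and pfd-4 (-0.43) and the prefoldin-like gene uri-1 (-0.04) did not pass. Of the 8 genes of the chaperonin that receives substrates from prefoldin, all 8 were below 0 and 3 were lower, though cct-7 and cct-8 turned positive without replicate 3. The cct-4 gene had 224, 232 and 249 CPM in the double mutant and 370, 373 and 522 CPM in N2 (log2 fold change -0.83, SE 0.15, adjusted p = 0.0129), and cct-1 had 292, 279 and 320.3 CPM in the double mutant and 459.8, 443 and 662 CPM in N2 (log2 fold change -0.79, SE 0.15, adjusted p = 0.0161). The cct-3 gene fell by 0.75, and cct-2, cct-5, cct-6, cct-7 and cct-8 did not pass, with log2 fold changes of -0.57, -0.33, -0.60, -0.22 and -0.38. The summed chaperonin level was 2076, 1975 and 2304 CPM in the double mutant and 2513, 2593 and 4735 CPM in N2, with N2 replicate 3 far above the rest. Of 19 tubulin and actin genes, whose products are the substrates of this route, 3 were higher and 3 lower. Each was 15.8% of the list, beside 12.8% higher and 7.69% lower over all genes tested. The tubulin genes tba-1 (-0.62), tba-2 (-0.65) and tbb-2 (-0.64) fell. The actin gene act-1 (0.67) and the tubulin genes tba-7 (0.93) and tba-9 (1.59) rose. Without replicates 1, 2 and 3 in turn, 1, 1 and 5 prefoldin genes, 0, 0 and 5 chaperonin genes and 0, 0 and 5 tubulin and actin genes were lower, and 0, 1 and 8 tubulin and actin genes were higher. Without the block, 1 prefoldin, 2 chaperonin and 0 tubulin and actin genes were lower.

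Few heat shock genes passed, and N2 replicate 3 stood apart for several. Of 21 heat shock protein genes 1 was higher, the small heat shock gene sip-1 (0.61), and 1 was lower, hsp-75 (-0.59). Each was 4.76% of the list, beside 12.8% higher and 7.69% lower over all genes tested. Higher and lower heat shock genes each numbered 0, 0 and 3 without replicates 1, 2 and 3 in turn. Without the block, 0 were higher and 1 lower. Transcripts of hsp-1 and hsp-60, named after their values were seen, show the spread. The HSP70 gene hsp-1 had 1630, 1671 and 2250 CPM in the double mutant and 1083, 1446 and 5208 CPM in N2, and the mitochondrial chaperonin gene hsp-60 had 296, 227 and 399.5 CPM in the double mutant and 114, 148 and 953 CPM in N2. N2 replicate 3 was the highest library and the other N2 libraries were the lowest, and neither gene passed (adjusted p = 0.812 and 0.706). Without replicate 3 both passed as higher in the double mutant, with log2 fold changes of 0.400 for hsp-1 and 0.995 for hsp-60. Without replicate 1 they were -0.472 and -0.289, and neither passed. Of 29 J-domain cochaperone genes 0 were higher and 4 were lower (13.8%, beside 7.69% of all genes tested), with 28 below 0 (median -0.33). The dnj-19 gene had 291, 293 and 267 CPM in the double mutant and 542, 521 and 409 CPM in N2 (log2 fold change -0.78, SE 0.14, adjusted p = 0.0133), and dnj-12 fell by 0.58 on the log2 scale. Of 22 endoplasmic reticulum folding genes 0 were higher and 3 lower (13.6%): pdi-1 (-0.76), stc-1 (-0.53) and sel-1 (-0.47). In the mitochondrial unfolded protein response list of 13, 1 gene was higher and 1 lower (7.69% each). The transcription factor gene dve-1 rose (0.69) and the import gene timm-23 fell (-0.65). Neither passed without replicate 1, without replicate 2 or without the block. The lower J-domain genes numbered 0, 0 and 13 without replicates 1, 2 and 3 in turn, and 1 without the block. The lower endoplasmic reticulum genes numbered 0, 0 and 6, and 0 without the block. Higher J-domain and higher endoplasmic reticulum genes each numbered 0, 0 and 1 without those replicates.

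With all 6 libraries and the block, all genes of the proteasome, the ribosome and the respiratory chain that passed but 1 were lower. The share lower was 19.4% of proteasome, 3.75% of ribosomal protein and 15.4% of respiratory chain genes, beside 7.69% of all genes tested. All 31 of 31 tested proteasome genes were below 0, though 4 turned positive without replicate 3, 6 were lower by the test and the median was -0.39. The core particle gene pas-3 had 226, 210 and 231 CPM in the double mutant and 339, 303 and 362 CPM in N2 (log2 fold change -0.59, SE 0.13, adjusted p = 0.0275). Of 80 cytosolic ribosomal protein genes 3 were lower and 0 higher (median -0.27). Their summed level was 99700, 95720 and 100700 CPM in the double mutant and 123900, 117500 and 114000 CPM in N2, without overlap. Of 52 respiratory chain genes 1 was higher and 8 were lower (median -0.25). The complex I gene nduf-6 had 50.2, 48.7 and 42.5 CPM in the double mutant and 92.9, 68.9 and 74 CPM in N2 (log2 fold change -0.73, SE 0.13, adjusted p = 0.013), and clk-1, needed to make ubiquinone, fell by 0.73. The 1 that rose was the cytochrome c gene cyc-2.2, at 3.65, 2.63 and 4.92 CPM in the double mutant and 0.0947, 0.143 and 0.909 CPM in N2 (3.74). Of 52 autophagy and vacuolar ATPase genes, only hlh-30 rose and only atg-3 (-0.49) fell. These shares of 1.92% each were below the 12.8% higher and 7.69% lower of all genes tested. Neither gene passed without replicate 1, without replicate 2 or without the block. Without replicate 3, 5 genes of the list were higher and 10 lower. Without replicates 1, 2 and 3 in turn, 0, 0 and 11 proteasome and 0, 0 and 31 ribosomal protein genes were lower. Lower respiratory chain genes numbered 0, 0 and 14. Over all 14197 genes tested, 133, 168 and 3060 were lower in these settings. Higher ribosomal protein genes numbered 0, 0 and 2 and higher respiratory chain genes 1, 1 and 4. Without the block, 1 proteasome, 0 ribosomal protein and 2 respiratory chain genes were lower.

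Genes of fat use went both ways. Of 60 fatty acid beta-oxidation genes 10 were higher and 8 lower, or 16.7% and 13.3%, beside 12.8% and 7.69% of all genes tested. Higher ones numbered 6, 7 and 17 and lower ones 3, 4 and 17 without replicates 1, 2 and 3 in turn, and 6 and 5 without the block. The acyl-CoA synthetase gene acs-2, known to rise on fasting, had 42.5, 66 and 4.52 CPM in the double mutant and 1.32, 2.71 and 0.909 CPM in N2 (log2 fold change 4.29, SE 0.48, adjusted p = 0.00275). Double mutant replicate 3 was far below the other 2 double mutant libraries, and above N2 all the same. The acs-17 gene had 31.1, 40.4 and 38 CPM in the double mutant and 12, 17.8 and 10.2 CPM in N2 (1.48). The acyl-CoA oxidase gene acox-1.2, which works in making ascaroside pheromones, had 5.57, 6.46 and 7.62 CPM in the double mutant and 20.3, 25.9 and 26.6 CPM in N2 (log2 fold change -1.89, SE 0.16, adjusted p = 0.00167). The carnitine palmitoyltransferase gene cpt-3 fell by 3.69 and the acyl-CoA synthetase gene acs-22 by 1.05 on the log2 scale. Of 13 lysosomal lipase and fatty acid binding protein genes 1 was higher (7.69%) and 4 were lower (30.8%). The lipase gene lipl-1 had 50.7, 44.6 and 66.5 CPM in the double mutant and 11.3, 11.7 and 17.6 CPM in N2 (log2 fold change 2.01, SE 0.14, adjusted p = 0.00134), whereas lipl-5 had 65.2, 73.8 and 35.5 CPM in the double mutant and 189, 218 and 321 CPM in N2 (log2 fold change -2.07, SE 0.34, adjusted p = 0.00943). The binding protein genes lbp-5 (-1.15) and lbp-7 (-1.22) fell. Neither passed without replicate 1 or without replicate 2. Higher genes of this list numbered 1, 1 and 3 and lower ones 1, 1 and 6 without replicates 1, 2 and 3. Of 19 desaturase and elongase genes 1 was higher and 1 lower (5.26% each). The elo-8 gene rose (2.03). The stearoyl-CoA desaturase gene fat-7 fell, at 13.3, 13.1 and 7.09 CPM in the double mutant and 71.8, 66.1 and 15.6 CPM in N2. Higher genes of this list numbered 1, 0 and 5 and lower ones 1, 1 and 4 without replicates 1, 2 and 3.

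The few sugar metabolism genes that passed were higher in the double mutant. Of 38 genes of glycolysis, the glyoxylate shunt, trehalose synthesis and gluconeogenesis 7 were higher and 0 lower, beside a median of 0.01. The share higher was 18.4%, beside 12.8% of all genes tested. The phosphoenolpyruvate carboxykinase genes, at the entry of gluconeogenesis, were among them. The pck-1 gene had 155, 254 and 298 CPM in the double mutant and 74.6, 139 and 101 CPM in N2 (log2 fold change 1.16, SE 0.17, adjusted p = 0.00696), and pck-2 had 758, 856 and 905 CPM in the double mutant and 321, 459 and 565 CPM in N2 (log2 fold change 0.94, SE 0.17, adjusted p = 0.0116). Neither overlapped between genotypes, though replicates 1 were lowest in both. The glyceraldehyde phosphate dehydrogenase gene gpd-2 rose by 0.90 on the log2 scale. Digestive protease genes fell more often than they rose, with 3 higher and 10 lower of 23 (median -0.53). Shares higher and lower were 13% and 43.5%, beside 12.8% and 7.69% of all genes tested. The cathepsin gene cpz-1 had 98.1, 106 and 142 CPM in the double mutant and 223, 278 and 362 CPM in N2 (log2 fold change -1.31, SE 0.14, adjusted p = 0.00227), and the cathepsin L gene cpl-1 had 474, 535 and 574 CPM in the double mutant and 862, 1191 and 1386 CPM in N2 (log2 fold change -1.10, SE 0.15, adjusted p = 0.00595). The cathepsin B-like gene cpr-4 had 9.96, 10.2 and 7.44 CPM in the double mutant and 43.5, 47.7 and 125 CPM in N2 (-2.77). Without replicates 1, 2 and 3 in turn, 2, 2 and 14 sugar metabolism genes were higher, 0, 0 and 2 were lower and 6, 5 and 11 protease genes were lower. Without the block, 1 sugar metabolism gene was higher and 7 protease genes were lower.

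Detoxification families held called genes in both directions. Shares higher and lower were 8% and 22% of cytochrome P450 genes and 20.3% and 8.47% of UDP-glucuronosyltransferase genes. They were 20% and 2.5% of glutathione transferase genes, beside 12.8% and 7.69% of all genes tested. Of 50 cytochrome P450 genes 4 were higher and 11 were lower. The cyp-35A2 gene had 11.4, 10.6 and 8.06 CPM in the double mutant and 30.8, 22.6 and 46.2 CPM in N2 (log2 fold change -1.66, SE 0.28, adjusted p = 0.0107). The related cyp-35C1 (-1.83) and cyp-35A5 (-2.60) also fell, while cyp-35B1, a known DAF-16 target of the same family, rose to 5.26, 6.85 and 4.25 CPM in the double mutant, against 2.94, 4.09 and 1.09 CPM in N2 (log2 fold change 1.10, SE 0.29, adjusted p = 0.0411). Of 59 UDP-glucuronosyltransferase genes 12 were higher and 5 lower. Of the 59, 2 had fewer than 10 counts in every N2 library and entered only through the double mutant. The ugt-13 gene had 34.5, 51.5 and 33.2 CPM in the double mutant and 8.35, 12.7 and 10.8 CPM in N2 (log2 fold change 1.90, SE 0.16, adjusted p = 0.00167), and ugt-22 had 28.3, 28.9 and 30.8 CPM in the double mutant and 63.4, 59.5 and 118 CPM in N2 (log2 fold change -1.38, SE 0.20, adjusted p = 0.00626). Of 40 glutathione transferase genes 8 were higher and 1 lower. The SKN-1 target gst-4 had 128, 116 and 56.1 CPM in the double mutant and 69.4, 60.02 and 15.8 CPM in N2 (1.21), with overlap at double mutant replicate 3, and gst-16 rose by 1.03 without overlap. Of 26 antioxidant and metal-binding genes 3 were higher, sod-3, mtl-1 and gpx-6 (1.14), and 1 was lower, gpx-5 (-0.87). These were 11.5% and 3.85% of the list, beside 12.8% and 7.69% of all genes tested. Without replicates 1, 2 and 3 in turn, 1, 1 and 11 cytochrome P450 genes were higher and 1, 4 and 15 lower, 7, 4 and 20 glucuronosyltransferase genes were higher and 2, 2 and 19 lower, and 2, 3 and 12 glutathione transferase genes were higher and 0, 0 and 5 lower.

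With all 6 libraries and the block, defence genes were split within families, except the pals family. Shares higher and lower were 18.4% and 19.4% of lectin, 18.2% and 9.09% of saposin-like and 23.5% and 8.82% of antimicrobial peptide genes. Over all genes tested these shares were 12.8% and 7.69%. Of 240 C-type lectin genes, which encode secreted carbohydrate-binding proteins, 103 were tested. Of these, 9 had fewer than 10 counts in every N2 library and 2 in every double mutant library. Such genes entered only through the other group. Of the 103 lectin genes, 19 were higher and 20 lower, and the summed level overlapped between genotypes. Besides those above, clec-60 had 3.93, 4.47 and 11.8 CPM in the double mutant and 0.213, 0.143 and 0.182 CPM in N2 (log2 fold change 4.91, SE 0.38, adjusted p = 0.00141), and clec-150 had 40.9, 37.9 and 47.9 CPM in the double mutant and 101, 104 and 95.8 CPM in N2 (log2 fold change -1.25, SE 0.14, adjusted p = 0.00268). Lysozyme genes showed the same split. Of 10 tested, ilys-3 (2.23, 2.38 and 1.28 CPM in the double mutant, 0.0237, 0.114 and 0 CPM in N2) and lys-2 (1187, 1206 and 688 CPM in the double mutant, 689, 663 and 138 CPM in N2) were higher. Both ilys-5 and lys-6 (-2.69) were lower, and lys-1, lys-3, lys-4, lys-7, lys-8 and ilys-4 did not pass. The DAF-16 target lys-7 had 348, 622 and 626 CPM in the double mutant and 267, 474 and 48.6 CPM in N2, where replicate 3 was low. Of 22 saposin-like genes 4 were higher and 2 lower. Of the 22, 2 had fewer than 10 counts in every N2 library and entered only through the double mutant. The spp-4 gene had 3.81, 3.26 and 4.43 CPM in the double mutant and 28.3, 22.5 and 37.1 CPM in N2 (log2 fold change -2.91, SE 0.17, adjusted p = 0.000833). Of 34 antimicrobial peptide genes 8 were higher and 3 lower. The caenacin genes cnc-2 (-4.36), cnc-3 (-1.93) and cnc-7 (-2.15) fell, and fipr-21 had 68.2, 63 and 94.2 CPM in the double mutant and 37.8, 33.8 and 55.4 CPM in N2 (0.84). Of 20 genes of the pals family, several of which respond to intracellular pathogens, 6 were higher (30%) and 0 lower. Over all genes tested the share higher was 12.8%. The pals-26 gene had 5.45, 5.15 and 5.32 CPM in the double mutant and 0.497, 0.371 and 0.303 CPM in N2 (log2 fold change 3.72, SE 0.28, adjusted p = 0.00141). Leaving out replicates 1, 2 and 3 in turn left 10, 11 and 30 lectin genes higher and 9, 12 and 35 lower. Higher antimicrobial peptide genes then numbered 3, 3 and 12 and lower ones 2, 2 and 9. Higher pals genes numbered 3, 4 and 7 and lower ones 0, 0 and 1.

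Small nematode-specific peptide genes of the nspa, nspb, nspc and nspe families were mostly lower where they passed. Of 48 listed 24 were tested, 12 were lower (50%, beside 7.69% of all genes tested), 1 was higher (4.17%) and the median was -1.02. The summed level was 148, 127 and 118 CPM in the double mutant and 382, 326 and 232 CPM in N2, without overlap. The neighbours nspc-16 and nspc-18 on chromosome X had 0.464, 0.51 and 0.222 CPM and 0.186, 0.227 and 0.133 CPM in the double mutant, against 14.5, 10.9 and 7.52 CPM and 9.09, 6.75 and 3.33 CPM in N2. Their log2 fold changes were -4.76 (SE 0.26) and -5.09 (SE 0.32). The copies resemble each other, so reads may have been split among them. The 1 that rose was an entry named nspa-5 (WBGene00013887; 1.63). Of 81 histone genes 37 were tested, 1 was higher and 11 were lower (29.7%, beside 7.69% of all genes tested), with a median of -0.70. The histone H3.3 gene his-74 had 123, 116 and 96.8 CPM in the double mutant and 220.1, 185 and 149 CPM in N2 (log2 fold change -0.71, SE 0.13, adjusted p = 0.0129). The linker gene hil-1, also a DAF-16 target, was the 1 that rose. Most core histone mRNAs lack a poly(A) tail, and how mRNA was selected is not given in the sources used here. Among regulators, 10 of 178 nuclear hormone receptor genes were higher and 0 lower. The smallest p was that of nhr-62 (18.3, 21 and 12.3 CPM in the double mutant, 6.11, 6.66 and 4.67 CPM in N2). The higher share was 5.62%, beside 12.8% of all genes. Of 200 F-box genes 11 were higher and 2 lower (5.5% and 1%), with the smallest p for fbxa-135 (2.56). Of 54 math and bath domain genes 3 were higher and 5 lower (5.56% and 9.26%), among them bath-13 (1.96) and math-14 (-3.12). Over all genes tested these shares were 12.8% and 7.69%. With replicates 1, 2 and 3 left out in turn, 1, 3 and 21 histone genes were lower, 3, 3 and 26 receptor genes were higher and 0, 0 and 4 lower, 4, 4 and 34 F-box genes were higher and 0, 0 and 17 lower, and 9, 9 and 18 nematode-specific peptide genes were lower. Over all genes tested, 678, 867 and 2963 were higher and 133, 168 and 3060 lower in these settings. Without the block, 3 histone and 12 peptide genes were lower, and 7 receptor and 4 F-box genes were higher.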

How the data were processed

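Gene-level expected counts of 12 paired-end mRNA libraries were deposited by the authors, 1 table per library, and the 6 of the double mutant and N2 were used for the main comparison. The submitters' processing notes name R 3.1.3, limma 3.24.15, RSEM 1.3.1, HISAT2 2.0.5 and StringTie 1.3.3, with the builds ce11 and WBcel235. Which step used which is not given in the sources used here, nor is a strand setting. Between 2.268% and 2.991% of genes in each of the 6 double mutant and N2 libraries had expected counts that were not whole, and these deposited values were rounded. Symbols and coordinates came from Ensembl release 115 (WBcel235), in which 46817 of 46904 gene IDs were found.

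Differences were tested with edgeR 4.0.16 in R 4.3.3 (quasi-likelihood, TMM, Benjamini-Hochberg at 0.05) with genotype and replicate number as terms. The block was part of the design set for this comparison. The correlation of deviations from group means was 0.51, 0.468 and 0.579 for the 3 same-numbered pairs and between -0.601 and 0.353 for other pairs. Deviations from the mean of 3 libraries sum to 0, so these correlations are not independent of each other. Contrasts with the single mutants used all 12 libraries and the same block. On simulated data with known changes, the main fit recovered 58.2% of 2-fold, 98.5% of 4-fold and 100% of 8-fold changes. The changed genes were drawn from those with a mean above 1 CPM, so these rates do not cover genes of lower level. Simulated libraries of the same replicate number shared an effect that the block fits. The simulation held no library set apart as N2 replicate 3 was, and false calls are not given here. It therefore does not cover the dependence on replicates. Replicates of a genotype differed by far more than sampling noise (chi-square per degree of freedom from 21.65 to 296.9). Counting intervals are at 95% and, like floors, cover counting error only. Whether replicates came from separate cultures is not stated beyond the word biological, so p-values measure the spread between these samples.

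Genes named in the text are the 15 steepest rises and 15 steepest falls, 6 genes of interest, and up to 4 called members of each list per direction with the smallest p. Naming the prefoldin, chaperonin, vitellogenin, lysozyme and pud lists in full goes beyond that rule. The compared groups and the gene lists were chosen with earlier results of these data known. Alternatives used limma 3.58.1 and DESeq2 1.42.0, other scalings, filters and designs, and left-out libraries. No promoter or protein sequences were used here.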

Additional observations from a re-analysis of the deposited data

Results flagged for a closer look

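A stretch of chromosome V was left out of the tests and holds signal in the double mutant. The 82 annotated genes there summed to 1849, 2160 and 1483 counts in the double mutant libraries, 5492 in all, against 5, 5 and 0 counts in the N2 libraries, 10 in all. The daf-2 libraries had 2306, 2439 and 2367 counts there, and the pfd-6 libraries 1687, 1623 and 2172. The cause was not tested.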

How the results depend on the processing

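The count of called genes, 2916 (1824 higher, 1092 lower), depended on the design and on the replicates. It was 951 (760 and 191) at an adjusted p under 0.01. Without the replicate block it was 1446 (1048 and 398), of which 1445 were also called with the block. With all 12 libraries in the fit it was 945 (769 and 176) with the replicate block and 473 (378 and 95) without it. With 10 libraries, leaving out daf-2 and pfd-6 replicate 3, an alternative added after seeing the data, the lower genes numbered 695. Leaving out a replicate number with both its libraries gave 811 to 6023 genes, 678 to 2963 higher and 133 to 3060 lower. Leaving out 1 double mutant library without the block gave 281 (224 and 57), 571 (489 and 82) and 530 (421 and 109) genes for replicates 1, 2 and 3. Leaving out 1 N2 library gave 256 (183 and 73), 91 (53 and 38) and 3599 (1836 and 1763). Within 1.5 times of the main counts were RLE size factors (2801 genes), filterByExpr (2899), no filter (3123), DESeq2 (3234), limma-voom (3165), the stretch kept (2930) and the transcript length offset (3396). The cause of these differences was not tested. Each genotype had 3 libraries, and genes of a few counts per library were measured least precisely. Of 183 called genes named here, 104, 112 and 183 also passed without replicates 1, 2 and 3, 117 without the block, 105 at an adjusted p under 0.01, 93 with all 12 libraries and the block, 66 with all 12 and no block, and 156 with 10. With 1 library left out and no block, 32 to 153 did. Under the other scalings, filters and tools 174 to 183 did. None of the 183 changed sign under these settings, while 7 named genes that were not called did. For hsp-60 the log2 fold change was -0.397 without the replicate block, -0.413 with all 12 libraries and no block, and -0.143 with all 12 and the block. It ran from -0.289 to 0.995 without a replicate number, was -0.370, -0.156 and -0.631 without double mutant replicates 1, 2 and 3, and -0.778 and -0.795 without N2 replicates 1 and 2. Without a replicate number, hsp-1 ran from -0.472 to 0.400, vit-2 from -0.294 to 0.104, vit-6 from -0.040 to 0.359, uri-1 from -0.130 to 0.112, cct-7 from -0.474 to 0.208 and cct-8 from -0.644 to 0.037. Values were -0.066 for vit-6 without N2 replicate 1, 0.066 for vit-2 without N2 replicate 2 and 0.010 for uri-1 without double mutant replicate 2. Without N2 replicate 3 they were 0.550 for hsp-1, 0.088 for uri-1, 0.342 for cct-7 and 0.067 for cct-8.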

Other observations

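Mitochondrial ribosomal protein genes, a family chosen after the values were seen, were all below 0, though 1 mrps gene turned positive without replicate 3, and 1 mrpl gene without replicate 1 and 1 without replicate 3. Of 29 mrps genes for the small subunit 15 were lower (51.7%), and of 41 mrpl genes for the large subunit 15 were lower (36.6%). Over all genes tested the share lower was 7.69%. The mrps-6 gene had 33.3, 31.9 and 22.6 CPM in the double mutant and 64.4, 53.3 and 35.4 CPM in N2 (log2 fold change -0.78, SE 0.14, adjusted p = 0.0111). The mrpl-47 gene had 52.2, 51.4 and 42.9 CPM in the double mutant and 98.9, 91.3 and 61.1 CPM in N2 (log2 fold change -0.76, SE 0.13, adjusted p = 0.0119). The groups did not overlap for either gene. Leaving out replicates 1, 2 and 3 in turn left 0, 0 and 21 mrps genes and 0, 0 and 30 mrpl genes lower. Without the block, 2 mrps genes and 1 mrpl gene were lower.

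Of 17 nep genes, which encode neprilysin-like peptidases, 7 were higher (41.2%), and of 33 twk genes for potassium channels 9 were higher (27.3%), beside 12.8% of all genes tested. These families were also picked after their values were seen. Fewer than 10 counts in every N2 library were found for 3 of the nep genes and 1 of the twk genes, which entered only through the double mutant. The nep-8 gene had 0.773, 0.623 and 1.02 CPM in the double mutant and 0.118, 0.0286 and 0.121 CPM in N2 (log2 fold change 3.14, SE 0.49, adjusted p = 0.00804), where it had 8 counts in all. The twk-40 gene had 2.04, 3.17 and 2.3 CPM in the double mutant and 0.521, 0.371 and 0.182 CPM in N2 (log2 fold change 2.73, SE 0.39, adjusted p = 0.00621). Of 35 lgc genes for ligand-gated ion channels 7 were higher (20%). Of 47 ttr genes, which encode transthyretin-like proteins, 11 were higher and 3 lower (23.4% and 6.38%). Over all genes tested the shares were 12.8% higher and 7.69% lower. Leaving out replicates 1, 2 and 3 in turn left 1, 2 and 10 nep genes, 1, 3 and 9 twk genes, 1, 1 and 10 lgc genes and 3, 3 and 16 ttr genes higher, and 0, 0 and 5 lgc genes and 0, 1 and 14 ttr genes lower. Without the block, 5 nep, 6 twk, 2 lgc and 6 ttr genes were higher.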
